A study of Drosophila melanogaster with 3 samples.

Results

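The cytosolic ribosomal protein genes of Drosophila melanogaster were described by where peaks of Labial-GFP lay at them. The set was chosen with earlier results of these data known. Its genes were taken by name. They were the protein-coding genes whose symbol is that of a large subunit protein (RpL or RpLP), a small subunit protein (RpS) or sta. This gave 86 of 13945 protein-coding genes on 6 chromosome arms, 48 of the large and 38 of the small subunit. Chromatin immunoprecipitation followed by sequencing had been carried out in 3 biological replicates of 1 group. These were whole embryos aged 0 to 24 h, males and females pooled, of a transgenic line that stably expresses lab with GFP fused at its C terminus. The antibody was directed against GFP, and the promoter that drives the fusion is not given in the sources used here. Labial is a homeotic transcription factor that patterns part of the head and the midgut of the embryo. All embryonic cells were sampled together. Embryos lacking the fusion were not analysed here, so how much of the signal depends on Labial was not tested.

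Each ribosome has a small subunit, which reads the messenger RNA, and a large subunit, which joins the amino acids. One copy of nearly every ribosomal protein is needed per ribosome, so their genes are transcribed strongly in growing cells, and losing 1 copy of many of them gives the Minute phenotype of short bristles and slow development. In Drosophila many of these genes start transcription within a polypyrimidine stretch, the TCT initiator, in place of the usual initiator and without a TATA box.

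A peak is a region of enriched reads, and its summit is the position of highest signal within it. The optimal IDR list (irreproducible discovery rate, a test of whether replicates rank peaks alike) held 10160 peaks. It was exactly the 10160 strongest of 30000 peaks called on the replicates together. Each replicate's own list also held 30000 peaks, of which the 10160 strongest were used to count genes. Read depth is unknown. The signal of each peak is the authors' value and was used only to rank peaks within a list, with rank 1 the strongest. A gene was counted as carrying a promoter summit when a summit lay within 500 bp of an annotated start site. The data hold 1 group, so nothing was tested. Counts of ribosomal protein genes stand beside the share over all protein-coding genes, and their ranks and distances beside those of the other genes with a promoter summit.

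Of the 86 genes, 74 carried a promoter summit, or 86.0% (exact 95% binomial interval 76.9 to 92.6%), against 25.5% of all protein-coding genes. The interval treats the 86 genes as independent draws, though they are the whole named set. It is not a test against the background. In the replicates' own lists the count was 73, 71 and 71 genes, a mean of 71.7 ± 1.15 (SD, n = 3). The backgrounds in these lists were 28.2%, 24.7% and 26.5%. A promoter summit was present in all 3 replicates at 68 genes and in none at 10. The 7 genes called in the IDR list but not in every replicate included RpL15, RpL38, RpS10a, RpS13, RpS24 and RpS28a, with IDR ranks from 4498 to 9433. In the whole pooled list 76 genes had a promoter summit, against a background of 38.1%.

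The promoter peaks of these genes were among the stronger of the list. Their ranks ran from 43 at RpL7 to 9433 at RpS24 with a median of 771, whereas the 3484 other genes with a promoter summit had a median rank of 3441.5. Among the 500 strongest peaks lay the promoter summits of 21 ribosomal protein genes, or 28.4% of the 74. The same held for 11.1% of the other genes with a promoter summit. Counting genes with or without a promoter summit, it held for 21 of the 86 and for 2.93% of all protein-coding genes. A rank of 1000 or stronger was reached by 41 genes, 55.4% of the 74 against 19.6%. As a share of the list the median rank was 7.59%, and in the replicates 5.98%, 10.07% and 7.67% (7.91 ± 2.05, SD, n = 3).

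**Figure D1:**
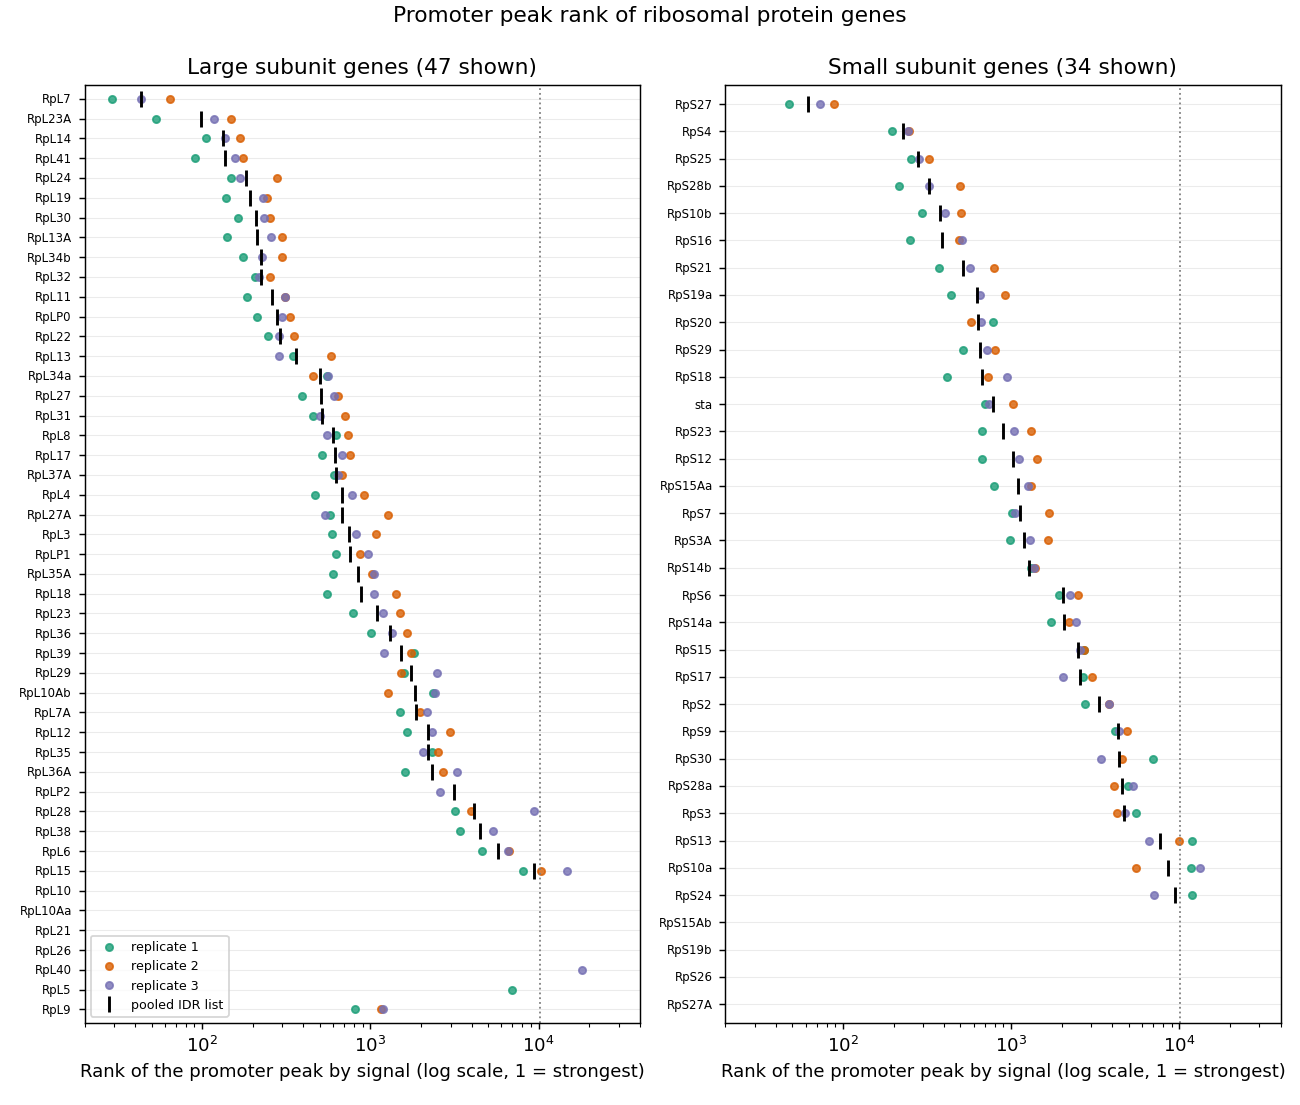
Rank of the promoter peak of 81 of the 86 ribosomal protein genes (log axis, 1 is the strongest), by subunit and in order of the pooled rank. Black bars are the IDR list, and points are each replicate's strongest summit within 100 bp of the pooled summit or, for the 11 genes at the bottom that lack one, its strongest promoter summit; the dotted line is rank 10160, the end of the IDR list. Points of a gene lie close together relative to the range from 43 to 9433, and RpL9 has 3 points and no bar.

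The 10 strongest were 9 large subunit genes and RpS27. RpL7 (FBgn0005593) had the peak of rank 43, at 2L:10200852-10201226 in dm6, with replicate ranks of 29, 64 and 43. RpS27 (FBgn0039300) had rank 62 at 3R:25247333-25247886, and ranks of 48, 89 and 73 in the replicates. RpL23A (FBgn0026372) had rank 99 at 3L:1668555-1668929, and its replicate ranks were 53, 149 and 117. These 3 stood ahead of all other ribosomal protein genes in the IDR list and in each replicate. RpL14 had a pooled rank of 133 and replicate ranks of 106, 167 and 137. RpL41, which encodes the smallest protein of the ribosome, had a pooled rank of 136 and replicate ranks of 91, 174 and 157. The remaining 5 were RpL24, RpL19, RpL30, RpL13A and RpL34b, with pooled ranks of 183, 192, 210, 213 and 224. In all 10 the pooled rank lay within the range of the replicate ranks or at its edge, and each gene overlapped in replicate ranks with the next in the order.

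Promoter sequences are shown for 4 of these 10, each with a TCT initiator at its most upstream annotated start, so that the initiator and the stretch holding the summit can be read together. They were chosen after the values were seen. Each runs from 90 bases before to 20 after the 5' end of the gene, 111 bases in the direction of transcription, from the genome of Release 6 (RefSeq), the coordinates of dm6. Capitals mark the TCT initiator, here the letters CTTTT or CTTTC with the C within 5 bases of an annotated start. RpL23A is at 3L:1668634-1668744 on the minus strand, RpL14 at 3L:8600916-8601026 on the plus strand, RpL13A at 3R:5624384-5624494 on the plus strand, and RpL34b at 3R:9401206-9401316 on the minus strand. Their pooled summits lay 72, 21, 49 and 83 bp upstream of the start, within the printed stretches.
RpL23A: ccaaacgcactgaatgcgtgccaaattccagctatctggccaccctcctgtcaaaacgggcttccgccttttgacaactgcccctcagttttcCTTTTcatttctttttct
RpL14: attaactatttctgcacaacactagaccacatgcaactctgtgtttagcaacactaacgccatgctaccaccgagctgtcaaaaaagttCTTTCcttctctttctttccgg
RpL13A: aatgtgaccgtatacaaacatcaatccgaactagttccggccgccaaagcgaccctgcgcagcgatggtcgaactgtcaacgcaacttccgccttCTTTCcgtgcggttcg
RpL34b: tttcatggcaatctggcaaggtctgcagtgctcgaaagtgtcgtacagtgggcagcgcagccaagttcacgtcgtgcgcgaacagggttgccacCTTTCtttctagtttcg

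The large and small subunit genes carried promoter summits at similar shares, 41 of 48 (85.4%) and 33 of 38 (86.8%), a difference of −1.43 percentage points. In the replicates the difference was 10.6, 1.75 and 6.47 points (6.29 ± 4.44, SD, n = 3), the opposite sign to the pooled list. The large subunit genes ranked more strongly, with a median of 624 against 1131. Over each replicate's summits within 100 bp of the pooled ones, the median rank was 552.5, 735 and 640 for the large and 987, 1384 and 1253 for the small subunit (642.5 ± 91.3 and 1208 ± 202, SD, n = 3). The subunits' replicate medians did not overlap, but the ranks of their genes did. Quartiles of the pooled rank were 261 and 1748 for the large subunit, and 636 and 3329 for the small. Of the 21 genes among the 500 strongest peaks, 15 belonged to the large subunit and 6 to the small. These were 15 of 41 and 6 of 33 genes with a promoter summit, against 11.1% of the other protein-coding genes with one.

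Genes of known functional centres spread over this range. RpLP0, RpLP1 and RpLP2 encode the stalk that recruits the translational GTPases, and had ranks of 279, 761 and 3134. RpLP0 was steady over the replicates at ranks 211, 331 and 297, and its pooled summit lay 26 bp upstream of a start. RpL3, which contributes to the peptidyl transferase centre, had rank 747 and replicate ranks of 592, 1084 and 822. RpL11 binds the 5S ribosomal RNA together with RpL5. It had rank 261, while RpL5 had no promoter summit in the IDR list. RpS6, the substrate of S6 kinase, had rank 2038, with 1925, 2486 and 2252 in the replicates. The gene sta, which encodes the small subunit protein related to the laminin receptor, had rank 781. RpS3A, the only member on chromosome 4, had rank 1187, with 987, 1663 and 1293 in the replicates.

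The summits lay at the start sites. Measured from the nearest annotated start in the direction of transcription, the strongest promoter summit of the 74 genes had a median position of −19 bp (quartiles −46.75 and −1.25). In the 3484 other genes the median was −117 bp (quartiles −221 and −19). The median distance in either direction was 25 bp against 134 bp. A summit within 50 bp of a start was found at 56 of the 74 genes, 75.7% against 21.6% of the other genes, and within 25 bp at 37 of 74 (50%) against 9.93%. In the replicates' own lists the median distance was 21, 26 and 23 bp for the ribosomal protein genes and 127, 138.5 and 132 bp for the other genes. The difference between them was 106, 112.5 and 109 bp (109 ± 3.25, SD, n = 3). This SD is the spread between replicates over the same genes, and not the spread between genes that the quartiles give. There were 57 summits upstream, 15 downstream and 2 at a start. By annotation, 43 lay outside the gene upstream, 26 in the 5' UTR, 2 in an intron (RpL35 and RpS9), 2 in a coding exon (RpS15 and RpS3) and 1 beyond the gene's end (RpS28a).

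**Figure D2:**
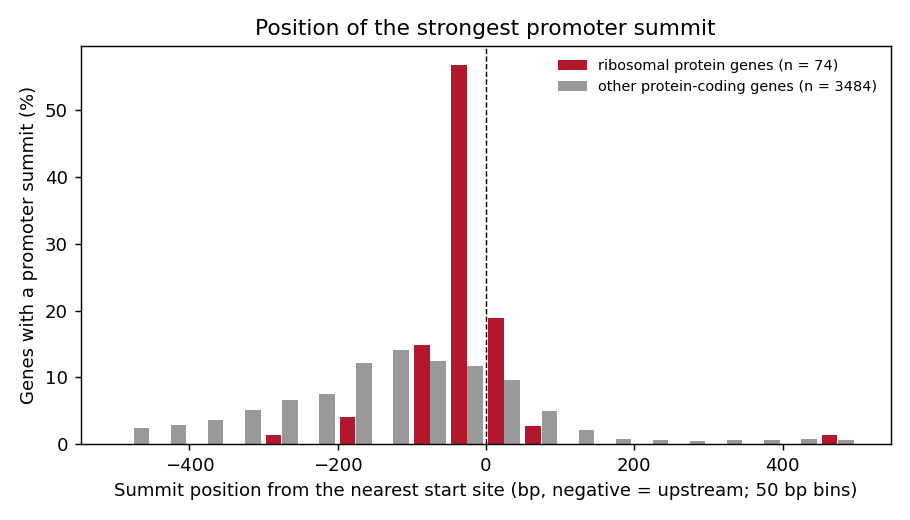
Position of the strongest promoter summit from the nearest start site, in 50 bp bins with negative values upstream, as a percentage of the 74 ribosomal protein genes (red) and of the 3484 other protein-coding genes with a promoter summit (grey). The red bars stand at and just upstream of the start, with a median of −19 bp, and the grey bars spread upstream, with a median of −117 bp.

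Stronger peaks of other genes lay further from the start, so the comparison was also made within bands of rank. Among ranks 1 to 500, 15 of 21 ribosomal protein genes (71.4%) had the summit within 50 bp of a start, against 5.43% of 387 other genes. Their median positions were −27 and −151 bp. Among ranks 501 to 1000 the share was 85% of 20 genes against 9.12% of 296, and among ranks 1001 to 2500 it was 82.4% of 17 against 17.3% of 694. Between ranks 2501 and 5000 it was 5 of 10 genes against 24.4% of 866. The last band, from 5001 to 10160, held 6 ribosomal protein genes, 5 of them within 50 bp, and 1241 other genes, of which 30% did so. The share was higher for the ribosomal protein genes in every band of the IDR list and of each replicate's list, with 3 to 28 of them in a replicate's band. Leaving out genes whose summit also lay within 500 bp of another gene's start gave median distances of 18.5 and 134 bp. For genes with 1 annotated start they were 36 and 134 bp.

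**Figure D3:**
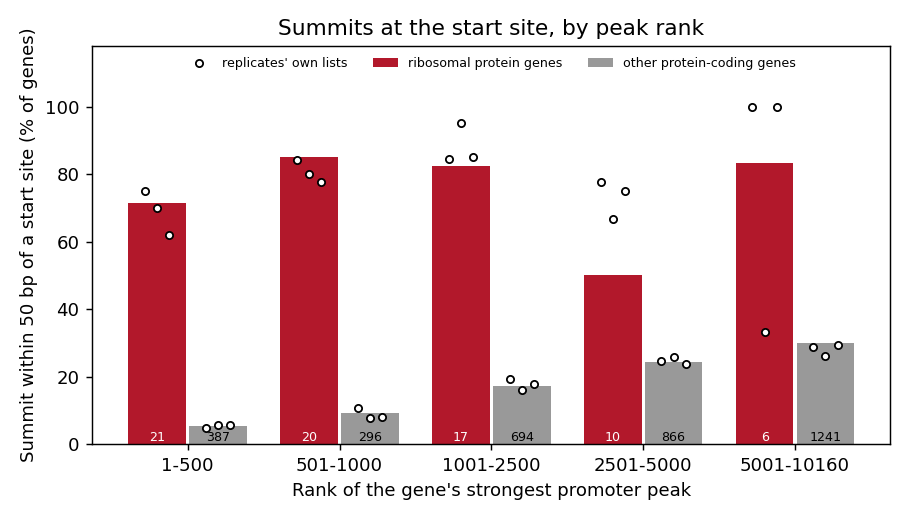
Share of genes whose strongest promoter summit lies within 50 bp of a start site, by the rank of that peak, for ribosomal protein genes (red) and other protein-coding genes (grey). Bars are the IDR list with the number of genes at their foot, and open points the 3 replicates' own lists; the red bars run from 50 to 85% and the grey from 5.43 to 30%.

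Distant summits were few. At genes with several promoter summits the one nearest a start is taken here. The nearest promoter summit of RpS28a lay 485 bp downstream of its start, beyond the end of this short gene and within 500 bp of the start of Mgat2. RpL28 had its summit 259 bp upstream, RpS10a 191 bp upstream, RpS20 173 bp upstream and RpS9 91 bp downstream. RpLP2 had its strongest summit 195 bp upstream, at rank 3134, but a weaker one 8 bp downstream of the start, at rank 4754. RpS20 was strong at rank 636, with 786, 574 and 665 in the replicates, and its summit also lay near the start of CG17271. The other 3 of these with an upstream or intronic summit ranked 4106 (RpL28), 8584 (RpS10a) and 4303 (RpS9).

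Positions and ranks recurred between replicates. At 70 of the 74 genes each replicate's whole list had a summit within 100 bp of the pooled one. At these 70 the summit positions of the replicates spanned a median of 17.5 bp and at most 109 bp. The weakest replicate rank was a median of 1.66 times the strongest, and at most 2 times in 53 genes. Wide ratios were 2.93 at RpL28, 2.81 at RpL23A, 2.57 at RpL18 and 2.41 at RpS10a. RpL28 had a strong summit 43 bp upstream of a start in replicate 1, at rank 289, and one 52 bp upstream in replicate 3, at rank 478. Neither was in the pooled list, where RpL28 had the weaker peak 259 bp upstream.

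Most genes had a single summit. Within the gene and 1 kb on either side, 77 of the 86 had at least 1 IDR summit, against a background of 37.3% of all protein-coding genes. The counts summed to 110 summits, and to 116, 106 and 106 in the replicates (109 ± 5.77, SD, n = 3). None was found at 9 genes, 1 at 49, 2 at 23 and 3 at 5, namely RpL8, RpS15Aa, RpS23, RpS25 and RpS9. Of 108 distinct summits, 81 lay at a member's start, and 20 of the other 27 lay within 500 bp of the start of another gene. Neighbouring starts were close at many members. The strongest promoter summit also lay within 500 bp of another protein-coding gene's start at 32 of 74, or 43.2%, near the 41.8% of the other genes. The strongest of these were RpL7 with Ripalpha, RpS27 with the nuclear pore gene Nup37, RpL14 with Nelf-E, RpL41 with NaCP60E, and RpL19 with CG3776. At RpL13, rank 362, the neighbour was Dref, which encodes the factor that binds the DNA replication-related element (DRE). In such cases the summit cannot be assigned to 1 of the genes.

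The copies of paralogue pairs were unlike in rank. There were 8 pairs whose symbols end in a and b. In 4 of them both copies carried a promoter summit and in 4 only 1 did. RpS19a had rank 627 and replicate ranks of 437, 925 and 656. RpS19b, known for germline expression, had no promoter summit in the IDR list or in any replicate's whole list. The same held for RpL10Aa beside RpL10Ab, which had rank 1849 and replicate ranks of 2370, 1266 and 2430, and for RpS15Ab beside RpS15Aa, with rank 1097 and replicate ranks of 794, 1316 and 1253. RpS15Ab was the only member under 90% unique in stretches of 30 bases around its start (88.3%), and the part of this in its missing summit was not tested.

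**Figure D4:**
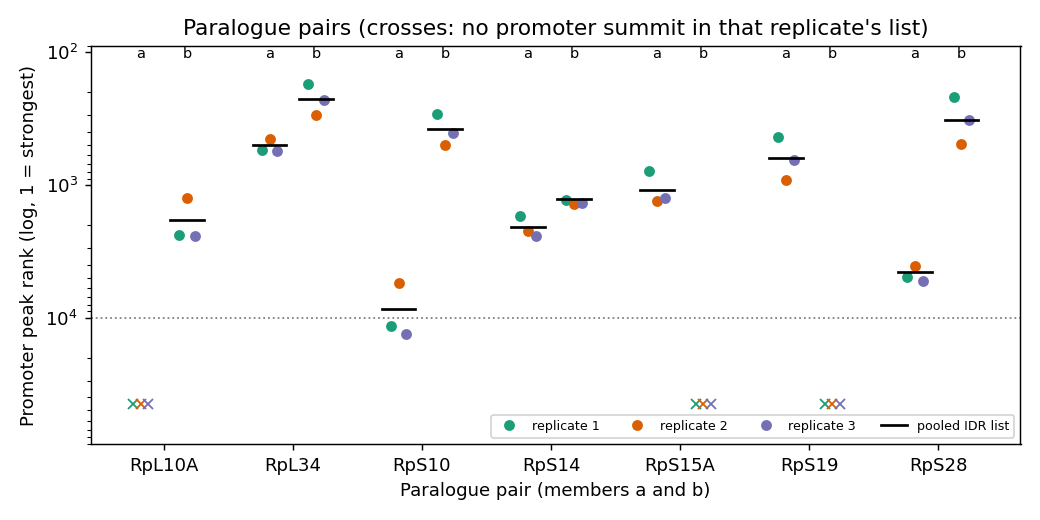
Promoter peak rank (log axis, strongest at the top) for the a and b copies of 7 of the 8 paralogue pairs, with points for the 3 replicates, bars for the IDR list and crosses where a replicate's list of 30000 has no promoter summit. Points at a copy with a bar are the summits within 100 bp of the pooled one; RpL10Aa, RpS15Ab and RpS19b have crosses only, and the dotted line is the end of the IDR list.

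In the 4 pairs with both copies called, the ranks also differed. RpS10b had rank 378 (294, 501 and 407 in the replicates) with its summit 9 bp upstream of a start, and RpS10a rank 8584 (11668, 5525 and 13311). RpS28b had rank 323 (217, 497 and 325), 23 bp upstream, and RpS28a rank 4545 (4982, 4094 and 5338) at the distant position given above. The replicate ranks of the copies did not overlap in either pair. RpL34b had rank 224 (174, 299 and 228) and RpL34a rank 505 (549, 454 and 558), again without overlap but with both near their starts. RpS14a and RpS14b are neighbours on the X chromosome and had ranks of 2067 (1732, 2212 and 2423) and 1271 (1305, 1384 and 1374). Of 5 further paralogues named as "-like" (RpL22-like, RpL7-like, RpL24-like, RpLP0-like and RpS28-like), only RpLP0-like carried a promoter summit, at rank 1626.

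The promoters of the RpS19 pair are printed because a copy with a strong summit and one without stand side by side. They were laid out as above, with the TCT initiator in capitals. RpS19a is at X:16637804-16637914 on the plus strand and RpS19b at 3R:23933510-23933620 on the minus strand. RpS19a has a TCT initiator and RpS19b has none by this definition.
RpS19a: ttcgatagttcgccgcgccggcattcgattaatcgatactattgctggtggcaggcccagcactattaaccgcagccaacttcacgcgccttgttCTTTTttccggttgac
RpS19b: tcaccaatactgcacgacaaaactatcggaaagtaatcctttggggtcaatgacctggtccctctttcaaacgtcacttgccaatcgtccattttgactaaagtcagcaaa

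The 12 genes without a promoter summit in the IDR list were 4 copies of paralogue pairs and 8 genes of no such pair. Those 8 were RpL5, RpL9, RpL10, RpL21, RpL26, RpL40, RpS26 and RpS27A. RpL40 and RpS27A encode ribosomal proteins fused to ubiquitin. RpS27A had no promoter summit in any list, and RpL40 only weak ones, of rank 22196 in the pooled list and 18074 in replicate 3. RpL10 and RpL21 had none in any list, and RpL5 had 1 in replicate 1, at rank 6956. These 3 genes lay in stretches with no IDR summit at all. For RpL10 the nearest was 147 kb away, for RpL21 103 kb and for RpL5 392 kb. RpL15, RpL38 and RpS3A carried the only IDR summit within 100 kb of their starts. The median number of IDR summits within 100 kb was 20.5 for the 74 genes and 12.5 for the 12.

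Other members of the 12 had summits close by or in the replicates. The nearest IDR summit to RpL26 lay 679 bp upstream, at rank 3612 and near the start of CG3902, and that to RpS19b 881 bp upstream, at rank 1119 and near CG5854. RpS26 had one 1775 bp downstream of a start, at rank 8222. RpL9 had a strong peak in every replicate. Its promoter summit had ranks of 811, 1151 and 1182 in the 3 replicates, at −8, −2 and 6 bp from a start, but the pooled list of 30000 peaks had none. Of 2876 genes with a promoter summit in all 3 replicates, 30 (1.04%) lacked one in the pooled list, and RpL9 was the third strongest of these by mean replicate rank. Why the pooled list lacks it was not tested.

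The promoters of RpL26 and RpS27A are printed as examples of genes without a summit, in the same layout. RpL26 is at 3L:18898785-18898895 and RpS27A at 2L:10408262-10408372, both on the plus strand. Capitals mark the DRE, TATCGATA, in RpL26 and the TCT initiator in RpS27A.
RpL26: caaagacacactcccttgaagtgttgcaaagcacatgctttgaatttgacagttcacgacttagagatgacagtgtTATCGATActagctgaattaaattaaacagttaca
RpS27A: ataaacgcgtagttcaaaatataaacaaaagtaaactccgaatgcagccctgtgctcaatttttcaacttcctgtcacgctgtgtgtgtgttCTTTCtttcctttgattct

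Motifs were counted in 250 bases before to 50 after the 5' end of each gene, on both strands unless given otherwise. The TCT initiator, searched at the start sites on the sense strand, was found at 55 of the 86 genes (64.0%) and at 5.13% of all protein-coding genes. It was found in 58.3% of the 12 genes without a promoter summit and in 64.9% of the 74 with one. Of the 55 genes with it, 87.3% carried a promoter summit, at a median distance of 23.5 bp from a start. Of the 31 without it, 83.9% did, at 25.5 bp. Outside the ribosomal protein genes, 38% of 661 genes with the TCT initiator carried a promoter summit, at a median of 149 bp, and 24.5% of those without, at 133 bp. A summit within 50 bp of a start was found at 81.3% of the 48 ribosomal protein genes with the initiator and a summit, at 65.4% of the 26 without it, and at 21.1% of the 251 other genes with both. The TCA initiator (TCAGT or TCATT at a start) was found at 2.33% of the 86 against 19.3% of all genes, and TATAAA within 50 bases upstream at 1.16%, in RpL39 alone, against 12.7%.

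The DRE, TATCGATA, was found in 29.1% of the 86 promoters and 9.37% of all. Within 100 bp of the summit it was found in 25.7% of the 74 genes and in 6.35% of all genes with a promoter summit. The core of Motif 1, GGTCACAC, which the factor M1BP binds, was found in 16.3% against 7.71%. It was in 18.9% of the 74 genes with a summit and in 0 of the 12 without. For the DRE these shares were 31.1% and 16.7%. The 12 are few, and no difference between them and the 74 was tested. The bipartite site described for Labial with its cofactor Extradenticle, TGATTGAT or TGATGGAT, was found in 1 of the 86 promoters (1.16%), against 2.43% of all promoters. Within 100 bp of the summit this site was found in 1.35% of the 74 genes, near the 1.74% of all genes with a promoter summit. The homeodomain core TAATTA was found in 27.9% of the promoters against 20.5%, but within 100 bp of the summit in 6.76% against 16.2%. GAGAG was found in 17.4% against 29.8%, CAGCTG in 8.14% against 17.7% and TGATAA in 16.3% against 22.8%. These matches are letters in a window and say nothing of which factor was there.

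**Figure D5:**
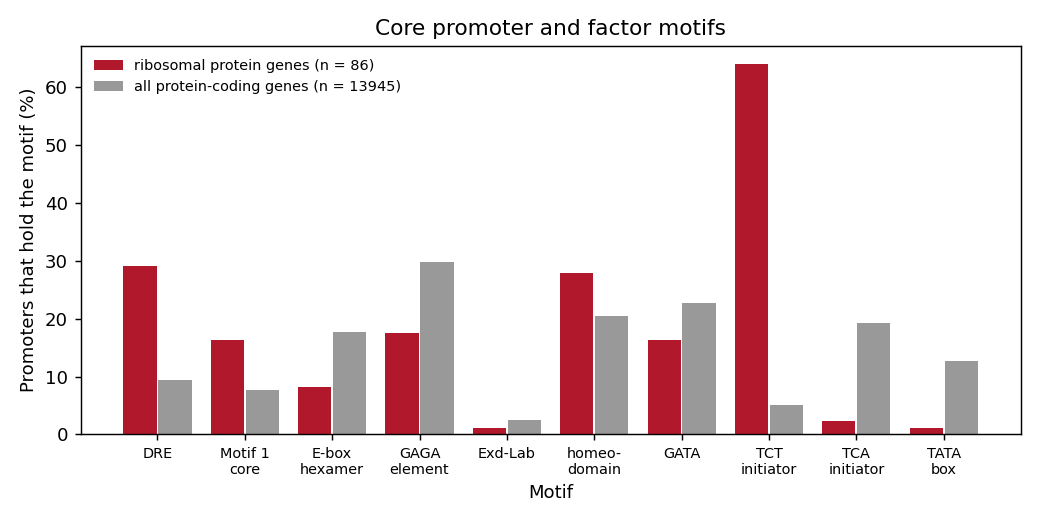
Share of promoters that hold each motif for the 86 ribosomal protein genes (red) and all 13945 protein-coding genes (grey), in 250 bases before to 50 after the 5' end or, for the initiators and the TATA box, at the start sites. The TCT initiator is at 64.0 against 5.13% and the DRE at 29.1 against 9.37%, while the Exd-Lab site is at 1.16 against 2.43%.

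Other genes of the translation machinery give a comparison, again without a test. The genes of the mitochondrial ribosome, which build a separate ribosome, carried a promoter summit at 25 of 73 (34.2%, against 25.5% of all protein-coding genes). Their median position was −202 bp, with 0 of 25 within 50 bp of a start. Their median rank was 2924. The strongest were mRpL41, mRpS23 and mRpS10, with ranks of 8, 12 and 25, ahead of RpL7, the strongest cytosolic gene, at 43. In the replicates 31, 27 and 30 of them had a summit, of which 4, 0 and 3 lay within 50 bp. Of the elongation and termination factors 6 of 9 carried one, at a median of −33 bp. The strongest of these was eEF1gamma, with rank 165 and a summit 25 bp upstream of its start. It was followed by eEF5 (rank 884), eEF2 (1004) and eEF1alpha1 (1039), all within 50 bp of a start. The 3 ribosome-associated proteins all carried one, but at unlike positions. Rack1, a protein of the small subunit surface, had rank 384 with a summit at −6 bp. The poly(A)-binding protein gene pAbp had rank 1410 with a summit at 478 bp, and none in replicate 2, and Tctp had rank 6017 with a summit at −106 bp. Factors of ribosome assembly and ribosomal RNA synthesis carried one at 4 of 16 (25%), near the background, the strongest being Nopp140 at rank 1629.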

How the data were processed

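Labial-GFP peaks were deposited for 3 replicates of 1 group. Per the deposited file descriptions, each dm6 list was called on one replicate, or on all together, against a shared control, and these gave the optimal IDR list. Sonication gave chromatin of 200 to 800 bp, per the labels. The deposited signal per peak and the summit offset are the authors' values. The aligner, the caller and the threshold behind the IDR list were not given in the sources used here. Depth is unknown. The binomial interval covers counting error over genes only, and not the spread between replicates. The dm3 lists were not used here.

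Summits were placed on genes of Ensembl release 115 and sequence of NCBI Release 6 with Python 3.11.15, numpy 2.4.6, scipy 1.17.1 and pandas 2.3.3. Of 13945 genes, 0 differed from bedtools 2.31.1 in the promoter count. Genes named are the 10 strongest, those without a promoter summit, paralogue pairs, the 5 most distant, the 5 most variable, those with 3 or more summits, the 5 strongest with a shared summit and the one on chromosome 4; genes of known functional centres, RpL13, RpL35, RpS3, RpS15, RpL38, RpL15, RpL39 and those missing a replicate were named after their values were seen. The members and lists were chosen with earlier results of these data known. No paired analysis was possible because the design has 1 group. Some genes that this rule names are not reported here; the counts include them.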

Additional observations from a re-analysis of the deposited data

How the results depend on the processing

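To leave out a replicate, genes called in both of the others were taken in place of the IDR list, and for summit counts and the distance gap the mean of the other replicates. The number of ribosomal protein genes with a promoter summit stayed within 68 to 76 under every alternative run (windows of 250 and 1000 bp, the stronger 5080 peaks of the list, the whole pooled list, the 5' end only, peak overlap, each replicate left out). The share over all protein-coding genes, 25.5%, moved more, from 16.8% with the stronger peaks to 38.1% with the whole pooled list. Large minus small subunit share, −1.43 points, turned positive with the stronger peaks (4.93), with peak overlap (0.658) and without 1 replicate (7.02 to 11.7). It was also positive in each replicate's own list, so its sign depended on the list and the settings used. Summits in the gene plus flanks rose from 110 to 199 with 5000 bp flanks. The median position of the nearest summit, −18.5 bp, was −7.5 bp from the 5' end only, −41 bp from the most downstream start and −15.5 to −11.5 bp without 1 replicate. The median rank share, 7.59%, was 12.3% among promoter peaks only. The distance gap to other genes, 109 bp, was 115.5 bp for unshared summits, 98 bp for genes with 1 start and 138 bp for ranks of 1000 or stronger, alternatives chosen after seeing the data.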

Other observations

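Ribosomal protein genes often carry small nucleolar RNA (snoRNA) genes in their introns. Of the 86, 29 hold at least 1 annotated snoRNA within their bounds, and 28 of these carried a promoter summit, all but RpL5. Of the 57 that hold none, 46 did. Over all protein-coding genes the shares were 62.5% of 96 genes that hold a snoRNA and 25.3% of 13849 that hold none; the 96 include the 29. Among the ribosomal protein genes with a promoter summit, the median rank was 725.5 for those that hold a snoRNA and 863 for the rest. By chromosome arm, a promoter summit was found at 14 of 14 members on X, 17 of 18 on 2R, 19 of 22 on 3R, 12 of 14 on 3L, 11 of 17 on 2L and 1 of 1 on chromosome 4. Of all protein-coding genes, 25.5% on X, 24.6% on 2R, 25.3% on 3R, 28.3% on 3L, 24.5% on 2L and 3.75% on chromosome 4 carried one. The peaks at these promoters had a median width of 353 bp, against 424 bp over the whole list. Widths were not compared at matched rank, and these promoter peaks rank more strongly than most of the list. Every ribosomal protein gene peak of rank 3134 (RpLP2) or weaker was 424 bp wide. Whether width differs apart from rank was not tested. Promoters with the DRE had a median rank of 1131 (23 genes), and those without it 704 (51 genes).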
